A study of Mus musculus with 4 samples.

Results

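The genes described here are 40 genes of glycolysis and of the response to low oxygen, taken from a list of glycolytic enzymes, glucose and lactate transporters and hypoxia response genes. They comprise 18 enzymes of the path from glucose to lactate, 4 transporters, 4 regulators of glycolytic flux, 4 genes of the oxygen-sensing machinery and 10 hypoxia response genes. All 40 were found among 43346 gene entries. Of these, 36 reached 5 CPM in 1 library or more (CPM here are counts per 1000000, with library totals adjusted by the trimmed mean of M values, or TMM), as did 12406 entries in all. The members below that level were Aldoc, Eno2, Ankrd37 and Car9, and their values are given but they enter no count.

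Bulk RNA-seq libraries were made from 4 outgrowths of the face of WT (wild-type) mouse embryos at E11.5, the lateral and medial nasal, the maxillary and the mandibular process, which build the midface, upper jaw and lower jaw. Each process had 1 library of mixed cell types, and the sources used here give no strain, sex, number of embryos or pooling for these libraries. The maxillary and mandibular processes are the parts of the first pharyngeal arch. Titles and tissue labels name the medial nasal library as such, although its label carries the lateral nasal abbreviation LNP. Regional genes separated the mandibular library and the nasal from the first arch libraries as titled, with Hand2, a transcription factor gene of the mandibular mesenchyme, at 103 CPM in the mandibular library and at most 1.32 CPM elsewhere, and Alx1, of the frontonasal mesenchyme, at 267 and 266 CPM in the nasal libraries against 65.9 and 39.0 CPM in the maxillary and mandibular libraries. Neither gene tells the nasal libraries apart, which did differ in Pax7, a paired box gene. Its level was 113 CPM in the library titled lateral nasal, against 21.1 CPM in the one titled medial nasal. Total counts were 13216161 to 16163874 per library, and the lateral nasal and maxillary libraries were the 2 deepest.

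No difference between processes could be set against biological replicates, so no test was made and no p-value is given. Intervals are 95% intervals of the ratio of 2 counts (exact conditional binomial) and cover counting error only. Series of 4 values follow the order lateral nasal, medial nasal, maxillary and mandibular. In tissue of mixed cells, fewer cells of a type and less RNA per cell cannot be told apart.

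Glycolysis splits glucose into pyruvate, which lactate dehydrogenase can reduce to lactate and which otherwise enters mitochondria through pyruvate dehydrogenase. Cells short of oxygen stabilize the alpha subunits of hypoxia-inducible factor (HIF), because the prolyl hydroxylases that mark these subunits for destruction need oxygen as a substrate. HIF pairs with ARNT and binds the letters ACGTG or GCGTG next to many genes of glucose uptake, glycolysis, lactate export and blood vessel growth, so enzymes and hypoxia genes share a regulator, while the enzymes are also expressed at high level in growing tissue with ample oxygen.

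Promoters are shown for the 2 enzymes and the 2 other members whose levels spanned the widest range over the processes among the 36 members. Each line gives 250 bases upstream of a RefSeq start site in GRCm38.p6, read 5′ to 3′ on the gene's strand, with ACGTG on either strand (ACGTG or CACGT) in capitals. The Pgk1 window is chrX:106186850-106187099 on the plus strand, Ldha (the upstream one of 2 annotated promoters) chr7:46845554-46845803 on the plus strand, Egln3 chr12:54203875-54204124 on the minus strand and Slc16a3 chr11:120948817-120949066 on the plus strand.
Pgk1: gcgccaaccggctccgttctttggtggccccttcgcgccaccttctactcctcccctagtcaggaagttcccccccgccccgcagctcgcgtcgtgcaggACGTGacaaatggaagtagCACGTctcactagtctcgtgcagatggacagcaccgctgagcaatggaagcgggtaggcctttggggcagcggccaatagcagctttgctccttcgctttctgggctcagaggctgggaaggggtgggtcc
Ldha: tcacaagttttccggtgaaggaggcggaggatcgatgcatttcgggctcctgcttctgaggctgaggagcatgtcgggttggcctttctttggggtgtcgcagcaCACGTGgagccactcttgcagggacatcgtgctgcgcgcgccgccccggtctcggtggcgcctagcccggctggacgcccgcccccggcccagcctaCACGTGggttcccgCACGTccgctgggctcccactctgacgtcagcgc
Egln3: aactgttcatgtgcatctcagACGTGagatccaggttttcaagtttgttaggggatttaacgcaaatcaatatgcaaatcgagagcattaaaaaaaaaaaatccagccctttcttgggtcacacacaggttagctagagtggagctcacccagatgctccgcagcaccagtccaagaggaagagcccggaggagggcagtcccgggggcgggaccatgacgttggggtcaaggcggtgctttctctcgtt
Slc16a3: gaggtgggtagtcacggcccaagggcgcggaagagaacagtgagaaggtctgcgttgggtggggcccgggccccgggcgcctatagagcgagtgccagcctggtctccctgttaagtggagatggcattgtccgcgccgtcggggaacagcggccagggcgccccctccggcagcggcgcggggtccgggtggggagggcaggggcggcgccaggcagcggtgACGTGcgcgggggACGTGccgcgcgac

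The Pgk1 window held 2 matches and Slc16a3 also 2, the latter beginning 27 and 14 bases before the start site. Ldha held 5 by position, because each of its 2 palindromic CACGTG runs is read on both strands, and its other promoter (chr7:46846832-46847081) held none. Egln3 had 1. The Pgk1 and Egln3 windows lie outside annotated genes in GENCODE M21, the Ldha window lies in an intron of longer Ldha transcripts, and 14 bases of the Slc16a3 window fall in a first exon of another Slc16a3 transcript. Promoters were matched for 37 of the 40 members, with 53 promoters in all, and ACGTG was found on either strand in 25 of them (47.17%). This motif stood in 16.57% of all 32851 promoters, searched over the same 250 bases, and in 21.68% of the promoters of protein-coding genes that reached 5 CPM. By group it was present in 7 of 12 promoters of hypoxia response genes (58.33%) and 9 of 29 promoters of the enzymes (31.03%). It was also present in 3 of 3 promoters of transporters, 3 of 3 of oxygen-sensing genes and 3 of 6 of flux regulators. Some genes have several promoters. Counted by matched gene, 77.78% of hypoxia response genes and 38.89% of enzymes had it, against 25.64% of protein-coding genes that reached 5 CPM. GCGTG, also searched on both strands, was found in 56.6% of the member promoters and in 45.58% of those of protein-coding genes that reached 5 CPM. CACGTG, which contains ACGTG and is the E-box of other factors, was found in 11.32% of member promoters and 8.34% of that same background. These are letter matches in a fixed window and say nothing about binding in these tissues.

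Across the 4 processes no member reached a 2-fold range, and the median range of the members was close to that of all genes. With 0.5 CPM added to both, none had a highest library at least 2-fold above its lowest, where 9.69% of all genes tested did, and none stood at least 2-fold above or below all other libraries in any process, against 3.09% of all genes. At a lower threshold of 1.5-fold between the highest and lowest library, 5 of 36 members qualified against 21.7% of all genes. They were Slc16a3, Egln3, Epas1, Ddit4 and P4ha2, none of them an enzyme, and no member was 1.5-fold apart from every other library (7.71% of all genes). On that scale the range from highest to lowest library had a median of 1.31-fold over the members, against 1.27-fold over all genes tested and 1.21-fold over genes that reached 100 CPM, and ran from 1.07-fold for Ldhb to 1.85-fold for Slc16a3. Ranges of single genes given below are ratios of CPM with nothing added. On that scale Egln3 had the widest of the 36 tested members, at 1.91-fold. The counting interval of that range excluded 1 for all 36, but the highest and lowest were picked from 4 libraries, and this interval holds no variation between embryos or dissections.

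**Figure D1:**
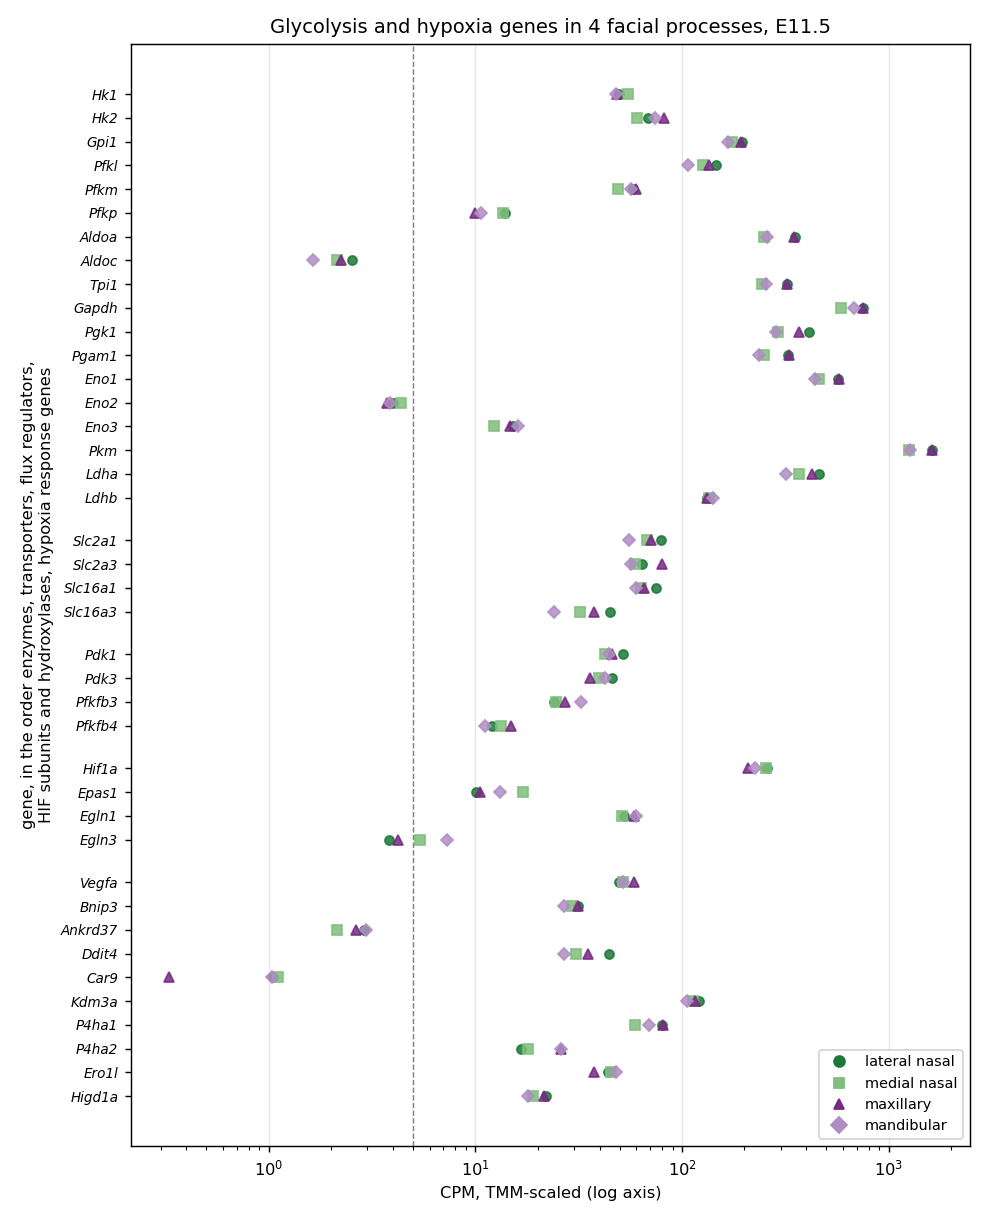
CPM (log axis) of each of the 40 genes in the 4 libraries, 1 point per library with nothing to base an error bar on; the dashed line marks 5 CPM, and CPM are not corrected for length, so genes should be compared along their own line only. The points of most genes lie close together, as for Ldhb at 132 to 141 CPM, and those of Slc16a3 (23.9 to 44.6 CPM) and Egln3 (3.82 to 7.27 CPM) lie further apart.

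The glycolytic enzymes were abundant in all 4 processes, and most of them were higher in the lateral nasal and maxillary libraries than in the medial nasal and mandibular libraries. Their summed level was 5497, 4343, 5430.4 and 4372 CPM, or 3048, 2355, 2933 and 2418 TPM (transcripts per 1000000, the authors' values corrected for length). Corrected for length, Gapdh led in every library at 578 to 795 TPM and Pkm followed at 467 to 614 TPM. Pkm, the pyruvate kinase gene of the last energy-yielding step, had 1619.9, 1253, 1626 and 1269 CPM. The lateral nasal and maxillary values for Pkm differed by 1.0-fold (interval 0.987 to 1.02), and the lower of them lay 1.28-fold (1.252 to 1.301) above the next library, mandibular.

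The enzymes of the upper part of the path spend energy to prepare the sugar for cleavage. Hexokinase traps glucose inside the cell, and its genes did not share an order. Hk1 stood at 49.6, 55.1, 48.5 and 48.1 CPM, and Hk2, the isozyme known as inducible by HIF, at 68.1, 60.9, 81.7 and 74.2 CPM. Hk1 was highest in the medial nasal library, in which Hk2 was lowest, and the remaining values of Hk1 did not differ beyond counting error. Gpi1, which converts glucose 6-phosphate to fructose 6-phosphate, held 195, 174, 193 and 167 CPM. Phosphofructokinase commits the sugar to glycolysis. Its main gene here, Pfkl, had 147, 127, 135 and 107 CPM, Pfkm had 58.0, 48.9, 59.8 and 56.8 CPM, and Pfkp had 14.0, 13.6, 10.01 and 10.7 CPM. Pfkl was lowest in the mandibular and Pfkm in the medial nasal library, whereas Pfkp separated the nasal from the first arch libraries, with no difference beyond counting error inside either pair. Exons of Pfkp overlap those of Pitrm1 on the opposite strand by 748 bases, and Gpi1 overlaps the noncoding Gm26762 by 741 bases. The libraries were made with a stranded kit, but the strand setting of the counting is not given in the sources used here, so reads of such pairs may be mixed.

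Aldolase A cleaves the sugar, and its gene was among the enzymes with the clearest separation. Aldoa held 354, 249.6, 349 and 258 CPM, with a 1.35-fold gap (1.297 to 1.41) between the lower of its 2 high libraries and the higher of its 2 low ones. The lateral nasal and maxillary values lay within counting error of each other, as did the medial nasal and mandibular values. Aldoc, the aldolase of brain, reached only 2.52, 2.14, 2.24 and 1.63 CPM, and no pair of libraries next to each other in its order differed beyond counting error.

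The enzymes of the lower part of the path, which return energy as ATP, mostly had this order as well. Tpi1, which interconverts the triose phosphates, stood at 322, 243, 322 and 256 CPM. Gapdh, the dehydrogenase that yields NADH, had 748, 590.0, 754 and 680.1 CPM, and so a smaller gap of 1.10-fold (1.07 to 1.13) between the mandibular library and the lower of the 2 high ones. Pgk1 (chrX:106187100-106203699 in GENCODE M21), which makes the first ATP of the path, had the widest range of all enzymes. It stood at 411, 291, 367 and 284 CPM, a range of 1.45-fold (1.39 to 1.51), and unlike Pkm, Aldoa and Tpi1 it differed between its 2 high libraries, by 1.12-fold. Pgam1, the phosphoglycerate mutase, held 327, 250.2, 330.5 and 236 CPM, and Eno1, the ubiquitous enolase, held 569.7, 463, 575 and 442 CPM. Both were lowest in the mandibular library and did not differ beyond counting error between the lateral nasal and maxillary libraries. Eno3, the enolase of muscle, did not follow this order. It had 15.2, 12.3, 14.8 and 16.1 CPM, and the medial nasal value was lowest but differed beyond counting error only from the lateral nasal and mandibular ones, while the summed level of 10 skeletal muscle markers was 36.5, 18.6, 271 and 801 CPM. Eno2, the neuronal enolase, stayed at 4.0, 4.36, 3.75 and 3.86 CPM with no difference beyond counting error, while 10 neuronal markers summed to 199, 384, 185 and 97.8 CPM.

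Lactate dehydrogenase subunits differed from each other in pattern. Ldha (chr7:46841475-46855627), whose subunit is the form of muscle and of cells that export lactate, stood at 460.2, 370.1, 427 and 319 CPM, a range of 1.44-fold (1.39 to 1.498). Ldhb, whose subunit predominates in heart, stood at 132, 135, 132 and 141 CPM, the narrowest range of any member at 1.07-fold (1.005 to 1.14). All 4 Ldha values were separated from each other beyond counting error, and no 2 neighbouring Ldhb values were. Corrected for length, Ldha made up 71.5%, 66.1%, 70.0% and 62.4% of the summed TPM of both genes.

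In all, 11 of the 16 tested enzymes had both the lateral nasal and maxillary values above both others, against 29.2% of all genes tested. For 9 of these 11 the gap between the 2 pairs excluded 1 by counting error, while for Pfkl and Pfkm it did not, and gaps ran from 1.02-fold for Pfkm to 1.35-fold for Aldoa. The remaining enzymes were Hk1, Hk2, Pfkp, Eno3 and Ldhb. Over all 36 members the count was 21, including all 4 transporters, 5 of the 8 tested hypoxia response genes and Pdk1. For 11 of the 21 the gap excluded 1. The share of all genes with a gap that excludes 1 was not computed. Higher counts narrow the interval, so these numbers of gaps describe counting error and are not set against a background. The opposite order, medial nasal and mandibular above both others, held for 4 members (Ldhb, Epas1, Egln3 and Ero1l) and for 20.8% of all genes. The order was more frequent among abundant genes. Among genes that reached 100 CPM it held for 34.6% of 2609 genes, for 10 of 11 enzymes and for 11 of 13 members. This pairing of the libraries was taken up after the values had been seen.

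**Figure D2:**
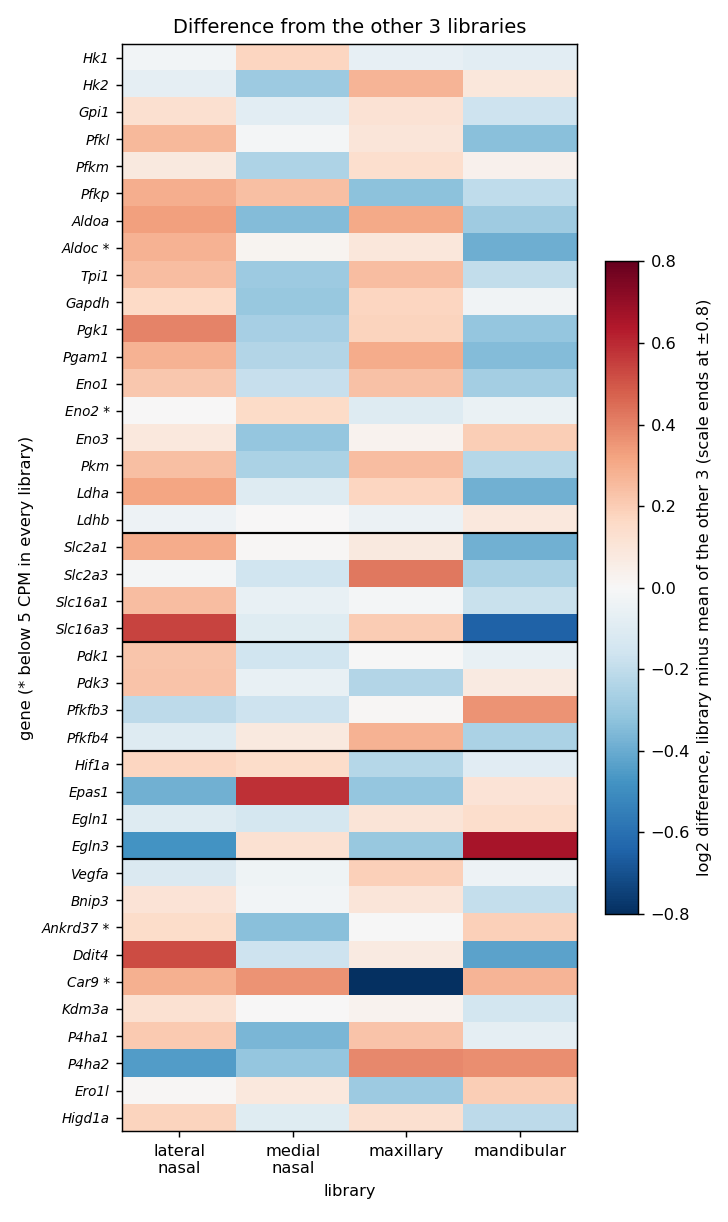
Log2 difference of each of the 40 genes between a library and the mean of the other 3, on CPM with 0.5 added, red above and blue below; horizontal lines separate enzymes, transporters, flux regulators, oxygen sensing and hypoxia response genes. The lateral nasal and maxillary columns are mostly red and the medial nasal and mandibular columns mostly blue in the enzyme block, for instance Aldoa at 0.33, -0.35, 0.30 and -0.28, whereas Epas1 and Egln3 have the opposite signs.

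Other gene groups had the same order of libraries, and their part in the enzymes' values was not tested. The median log2 difference of the enzymes from the mean of the other 3 libraries was 0.23, -0.24, 0.17 and -0.20, while over all genes tested it was 0.02, -0.03, 0.02 and -0.01. Red blood cells are rich in RNA of globin genes, and 10 of 10 erythroid markers were higher in both the lateral nasal and maxillary libraries. Their median differences were 0.39, -0.33, 0.26 and -0.29, and they summed to 4991, 3188, 4699 and 3526 CPM. Of 80 tested genes of cytosolic ribosomal proteins, 71 had this order, with medians of 0.13, -0.18, 0.17 and -0.10. Of 6 tested genes of the integrated stress response 4 had it, with medians of 0.15, -0.17, 0.19 and -0.13. The 2 libraries are also those of greatest depth, at 16163874 and 15385124 counts against 13216161 and 13680302. In contrast, the small structural RNAs 7SL and 7SK, which held 6.10, 7.15, 6.65 and 6.49% of all counts, were lowest in the lateral nasal library. Summed mesenchymal markers were 3997, 4316, 4941 and 4537 CPM, surface epithelial markers 430.4, 384, 345 and 259.7 CPM and endothelial markers 281, 299, 308 and 328 CPM. None of these sums had the enzymes' order. By gene, 3 of 8 mesenchymal, 2 of 10 surface epithelial and 0 of 9 endothelial markers had it, against 29.2% of all genes tested.

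**Figure D3:**
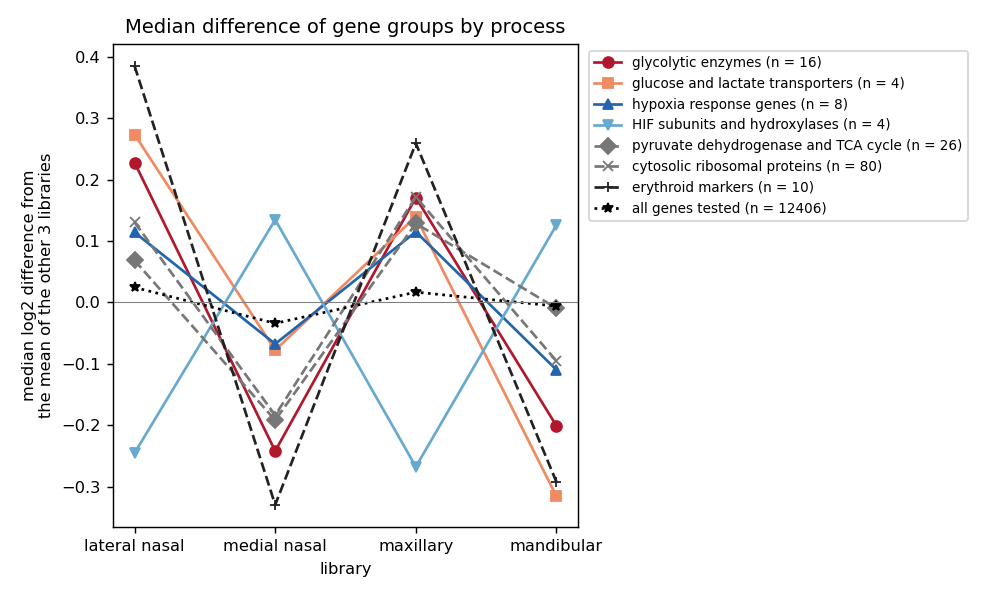
Median log2 difference between each library and the mean of the other 3 for groups of genes, with lines joining the values of a group only to guide the eye and the number of tested genes in the key. Enzymes (0.23, -0.24, 0.17 and -0.20), transporters, ribosomal protein genes and erythroid markers lie above 0 in the lateral nasal and maxillary libraries and below 0 in the other 2, and the oxygen-sensing genes (-0.25, 0.14, -0.27 and 0.13) lie on the opposite side.

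Counts of Gapdh and Eno1 are uncertain, because their reads are shared with near-identical copies and RSEM divides such reads among them. Gm13394 is a processed pseudogene of Gapdh on chromosome 2 (chr2:28933610-28934609 in GRCm38, minus strand). Its 1000 bases aligned to the Gapdh transcript with a single difference, A438C, counted from the 5′ end of the 1273-base GENCODE M21 transcript with the Gapdh base first. The 61 bases around it are shown because only reads over this position differ between gene and copy within the alignment, and the differing base is in capitals. The difference lies in the Gapdh coding sequence, at coding position 424.
Gapdh: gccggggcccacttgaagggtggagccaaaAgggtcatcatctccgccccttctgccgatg
Gm13394: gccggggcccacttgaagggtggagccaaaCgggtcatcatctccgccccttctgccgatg

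Gm13394 was assigned 8078, 5752, 7631 and 6002 counts, beside 12160, 7982, 11442 and 9162 counts for Gapdh. Copies sharing at least 50% of their 50-base words with Gapdh numbered 27 and together held 39.7 to 42.0% of the summed counts of gene and copies. Eno1 shares its reads with the coding gene Eno1b, which was assigned 4296, 3098, 3941 and 2829 counts, and with the pseudogene Gm4735 (chr2:80837141-80838442, plus strand, 5 differences in 1302 bases). Gm4735 was assigned 2411, 1501, 2056 and 1554 counts, and Eno1 itself 9257, 6261, 8729 and 5958. The share of the copies hardly moved among processes. With copies added, Gapdh ranged over 1.24-fold (1.21 to 1.26) and Eno1 over 1.28-fold (1.248 to 1.31), both still with the lateral nasal and maxillary libraries above the others. For Pgk1 and Pgam1 the copies held at most 3.42% and 2.26% of such sums.

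**Figure D4:**
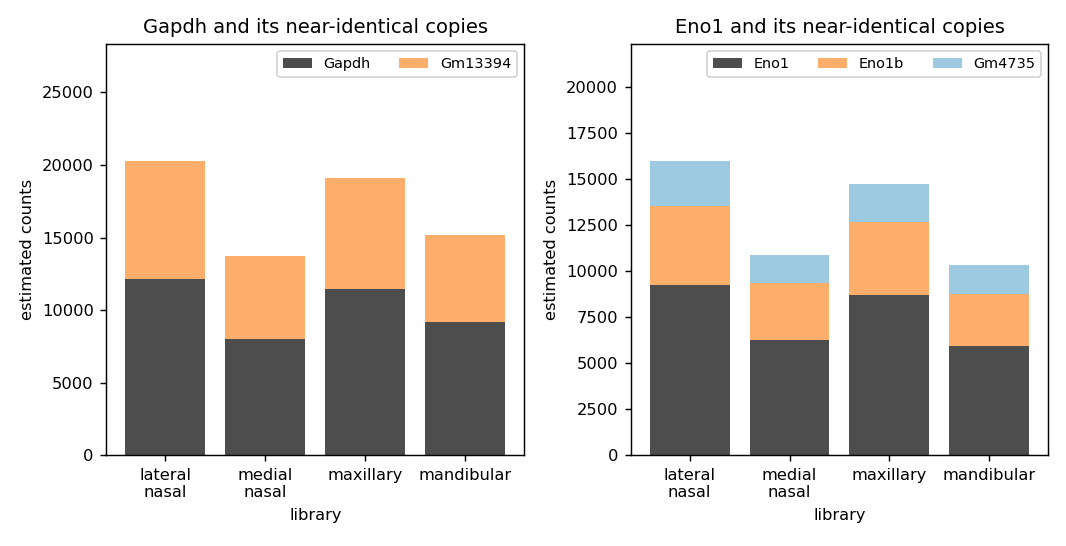
Estimated counts assigned to Gapdh (left) and Eno1 (right) and, stacked on them, to their near-identical copies in each library; bars start at 0. Gm13394 adds 5752 to 8078 counts to Gapdh, and Eno1b and Gm4735 together hold 40.7 to 42.4% of the Eno1 stack.

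The leading isozyme of most families was the same across the processes, while its share moved more in some families than in others. In 10 of 12 families of members, the gene with the largest share of the family's TPM was the same in all 4 libraries. Aldoa held 98.8 to 99.5% of the aldolase TPM, Eno1 94.0 to 96.0% of enolase, Pfkl 56.0 to 63.2% of phosphofructokinase and Ldha 62.4 to 71.5% of lactate dehydrogenase. P4ha1 held 58.9 to 74.1% of the TPM of P4ha1 and P4ha2, and Pfkfb3 64.3 to 75.3% of that of Pfkfb3 and Pfkfb4. These are shares among the members listed here only. That of Eno1 leaves out the coding gene Eno1b, which was assigned 2829 to 4296 counts per library. The leading gene changed in hexokinase and the monocarboxylate transporters. Hk2 held 57.0, 49.96, 63.0 and 57.0% of the hexokinase TPM, so that both genes stood level in the medial nasal library. Slc16a3 held 56.0, 51.4, 53.6 and 43.3% of the TPM of the 2 lactate transporters, and Slc16a1 had the larger share in the mandibular library alone.

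**Figure D5:**
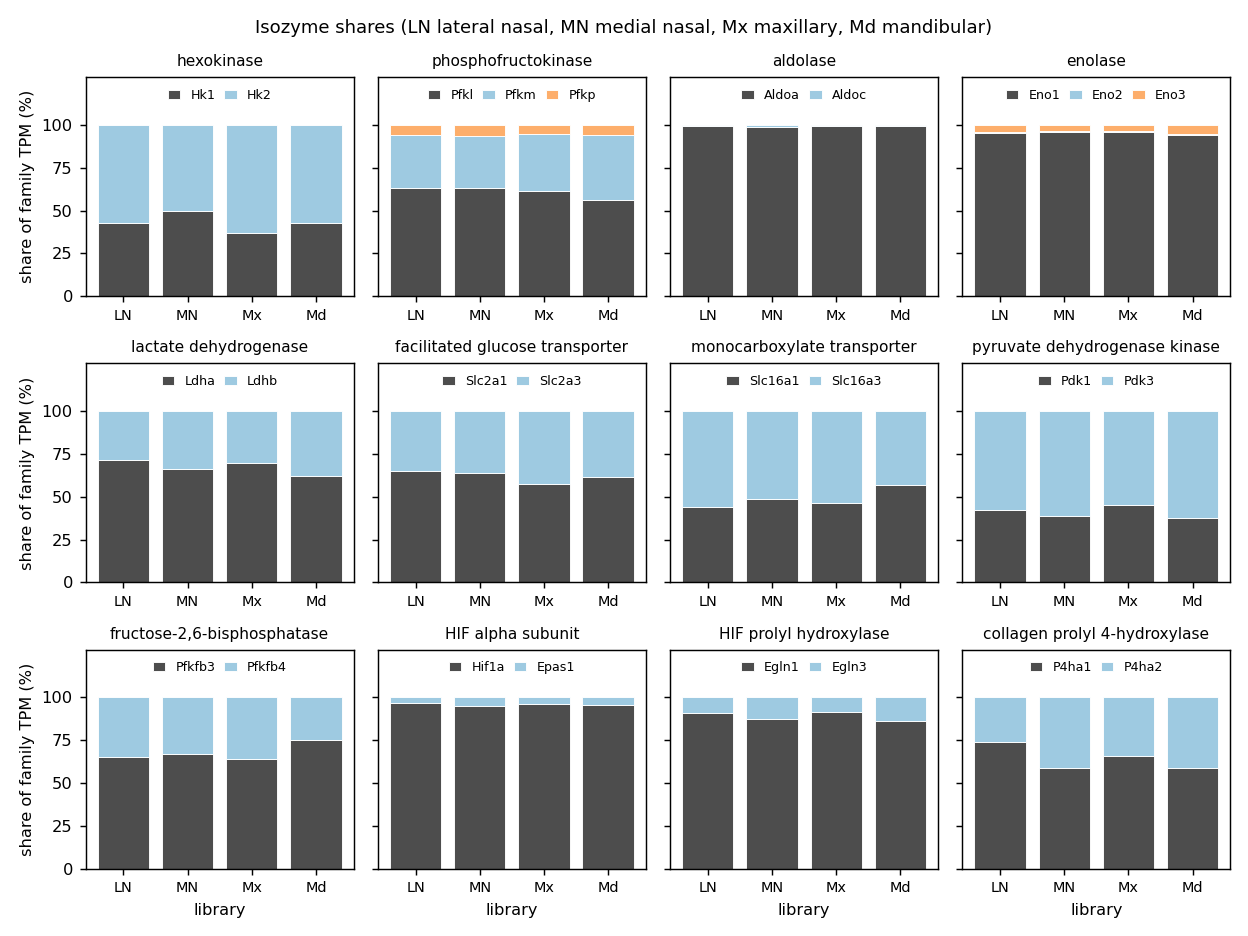
Share of each family's TPM (percent, stacked bars from 0 to 100) held by its members in the lateral nasal (LN), medial nasal (MN), maxillary (Mx) and mandibular (Md) libraries for 12 families. In most panels the same gene takes the largest part of every bar. Slc16a3 takes 56.0% of the lateral nasal and 43.3% of the mandibular bar.

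All 4 transporter genes were lowest in the mandibular library, while 24.9% of all genes tested and 16 of the 36 members were lowest there. Slc2a1 encodes GLUT1, the main glucose carrier of embryonic tissue and red cells, and stood at 79.3, 68.1, 70.6 and 55.5 CPM. Slc2a3, encoding the high-affinity carrier GLUT3, stood at 63.9, 59.3, 80.4 and 56.5 CPM and was highest in the maxillary library, by 1.26-fold over the lateral nasal one. The maxillary and medial nasal values of Slc2a1 did not differ beyond counting error, nor did the lateral and medial nasal values of Slc2a3. For Slc2a3 and Slc16a1 the mandibular value lay within counting error of the medial nasal one, so their lowest place was not resolved. Slc16a1 encodes MCT1, which carries lactate either way, and Slc16a3 (chr11:120948480-120960868) encodes MCT4, the exporter of highly glycolytic cells. Slc16a1 had 74.8, 63.6, 65.1 and 59.8 CPM, with only the lateral nasal value set apart. Slc16a3 had 44.6, 31.9, 37.4 and 23.9 CPM, a range of 1.87-fold (1.63 to 2.14), and all of its values were separated from their neighbours in the order. As TPM it was 19.2, 13.3, 14.5 and 9.06, a range of 2.12-fold.

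The regulators of flux had no common order, and their median differences were 0.06, -0.11, 0.00 and 0.01. Pyruvate dehydrogenase kinases keep pyruvate out of mitochondria by switching off pyruvate dehydrogenase. Pdk1, a HIF target, held 51.6, 42.2, 45.8 and 44.5 CPM, and Pdk3 held 45.9, 39.5, 36.0 and 42.4 CPM. Both were highest in the lateral nasal library, but for Pdk3 the mandibular value lay within counting error of it. The PFKFB enzymes make fructose 2,6-bisphosphate, the activator of phosphofructokinase. Pfkfb3 held 24.1, 24.6, 27.0 and 32.5 CPM and Pfkfb4 12.1, 13.3, 14.8 and 11.1 CPM. Pfkfb3 was highest in the mandibular library and the other 3 values lay within counting error, whereas the lowest Pfkfb4 value was the mandibular one.

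Of the genes of oxygen sensing, Hif1a had the highest level corrected for length, at 44.8 to 56.1 TPM. It encodes the ubiquitous HIF alpha subunit and stood at 258, 254, 209 and 225 CPM. Both nasal values were above both first arch values, and the nasal values did not differ beyond counting error. An antisense gene, Gm15283, overlaps Hif1a exons by 330 bases and was assigned 12 to 26 counts. Epas1 (chr17:86753700-86833410), which encodes HIF-2 alpha of endothelium and other cells, had 10.1, 17.1, 10.5 and 13.2 CPM. It was highest in the medial nasal library, 1.69-fold (1.38 to 2.08) above the lateral nasal one, while the lateral nasal and maxillary values lay within counting error of each other. By TPM, Hif1a held 95.2 to 97.0% of the 2 subunits. Egln1, the main prolyl hydroxylase, stood at 52.6, 51.5, 58.6 and 59.8 CPM, with the first arch libraries slightly above the nasal ones. Egln3 (chr12:54178981-54203860), a hydroxylase gene that HIF itself induces, stood at 3.82, 5.40, 4.22 and 7.27 CPM. Its mandibular value was 1.91-fold (1.37 to 2.66) above the lateral nasal value, which rests on 62 counts in the lateral nasal library. With 0.5 CPM added it was 1.80-fold, below that of Slc16a3, and no neighbours in its order differed beyond counting error.

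The 10 hypoxia response genes summed to 149, 132, 138 and 132 TPM, less than the enzymes in every library, and did not share 1 order. Kdm3a, a histone demethylase gene, held 121, 114, 115 and 105 CPM, and its 3 higher values lay within counting error. Vegfa, the growth factor of blood vessels, held 49.5, 51.7, 58.4 and 51.7 CPM and by CPM stood apart in the maxillary library only, by 1.13-fold. Per length it did not, at 25.6, 23.5, 25.5 and 23.3 TPM, and its assigned transcript length differed by up to 1.12-fold among libraries. Ddit4 (chr10:59949669-59951834), an inhibitor of growth signalling through mTORC1, held 44.3, 30.8, 34.9 and 26.8 CPM, with a range of 1.65-fold (1.46 to 1.88) and a gap of 1.27-fold between the lateral nasal and the next library. Bnip3, of mitophagy, held 31.4, 29.3, 31.3 and 26.9 CPM, and Higd1a, a mitochondrial protein gene, held 22.0, 19.0, 21.5 and 17.9 CPM. No neighbours in order differed beyond counting error for either of these.

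Collagen prolyl 4-hydroxylases, which HIF induces and which modify collagen for export, parted in pattern. P4ha1 had 80.1, 59.3, 80.8 and 69.0 CPM, with the lateral nasal and maxillary values higher as for most enzymes. P4ha2 (chr11:54100095-54131665) had 16.7, 17.96, 25.9 and 25.8 CPM, higher in both first arch libraries than in both nasal ones. The 2 first arch values of P4ha2 and its 2 nasal values did not differ beyond counting error, and the gap between them was 1.44-fold (1.22 to 1.70). Per length the separation was absent, at 8.05, 11.48, 11.35 and 13.4 TPM, and the average transcript length assigned to P4ha2 differed by up to 1.37-fold among libraries. Ero1l, which oxidizes protein disulfides in the endoplasmic reticulum, had 43.8, 45.4, 37.3 and 48.2 CPM and was lowest in the maxillary library. Ankrd37, known as a HIF target, had 2.89, 2.14, 2.63 and 2.97 CPM, and part of its exons overlaps Lrp2bp and Ufsp2 on the opposite strand. Car9, a carbonic anhydrase gene that is among the most sharply HIF-dependent genes known, was near the limit of the data with 17, 15, 5 and 14 counts. A difference in Car9 is bounded only loosely at this depth, with a range of 3.37-fold (1.16 to 11.8), and 3 counts correspond to 0.185 to 0.223 CPM.

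Set beside each other, the enzymes and the hypoxia response genes had medians of the same sign in each library, at 0.23, -0.24, 0.17 and -0.20 for the enzymes and 0.11, -0.07, 0.12 and -0.11 for the hypoxia response genes. Relative to the median of all genes the hypoxia response genes lay 0.09 above in the lateral nasal and 0.10 above in the maxillary library, and their values were -0.03 in the medial nasal and -0.10 in the mandibular library. Counting error alone, averaged over the genes and taken as independent between them, gives these medians approximate half-widths of 0.06 to 0.07. The medial nasal value lies within its half-width, so its sign is not resolved. The half-widths hold no variation between genes, embryos or dissections, so a value beyond them is not thereby a resolved difference between processes. The maxillary value was 0.033 with the deposited TPM, and the mandibular value was -0.04 with no minimum level. The enzymes lay -0.21 and -0.20 from the median of all genes in the medial nasal and mandibular libraries, with a half-width of 0.03. A 1.5-fold range was found for 2 of 8 hypoxia response genes and 0 of 16 enzymes, beside 21.7% of all genes tested. Of the 5 hypoxia response genes that were higher in both the lateral nasal and maxillary libraries, only P4ha1 had a gap that excluded 1. Whether a gap excludes 1 also depends on the counts. Gaps of 1.13-fold for Ddit4 and Higd1a did not, on 241 to 720 counts per library. The 1.10-fold gap of Gapdh did, on 7982 to 12160 counts. The oxygen-sensing genes had medians of -0.25, 0.14, -0.27 and 0.13. Within these 4 genes Epas1 and Egln3 had negative differences in the lateral nasal and maxillary libraries, whereas Hif1a had 0.17, 0.15, -0.23 and -0.09.

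Members that separated the nasal from the first arch libraries were counted in each direction, and their number changed with the scaling. Both nasal values were above both first arch values for 3 members, Hk1, Pfkp and Hif1a, against 15.0% of all genes tested. The reverse held for 4 members, Hk2, Pfkfb3, Egln1 and P4ha2, against 15.7%. By TPM, Hk2, Pfkfb3 and P4ha2 did not keep this order. Counted in either direction, 7 of 36 members separated the 2 pairs. With total counts 10 of 36 did, and with TMM over protein-coding genes 11 of 37. The shares of all genes under these other scalings were not computed. No member reached 2-fold between both pairs, as 1.52% of all genes did. For the remaining way to pair the libraries, lateral nasal and mandibular against medial nasal and maxillary, 2 members were higher in the first pair (10.8% of all genes) and 2 in the second (8.37%). By single library, 17 of 36 members were highest in the lateral nasal process, against 24.6% of all genes, and 6 were highest in the mandibular process, against 25.9%.

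Genes of the connected pathways were read in the same way. Of 28 other genes of glycolysis, gluconeogenesis and sugar entry, 13 were tested, with medians of 0.05, -0.05, -0.11 and -0.05. With 0.5 CPM added, 1 of them passed a 2-fold range, against 9.69% of all genes tested. That gene was Galm, a mutarotase that readies sugars for the path, at 17.2, 18.1, 10.9 and 7.05 CPM. Slc16a7 passed 2-fold only with nothing added, at 2.01-fold. Among 35 other HIF pathway genes, 27 were tested, with medians of 0.02, 0.09, -0.04 and -0.01. Car12, a carbonic anhydrase gene, was the only one past 2-fold (9.69% of all genes tested), at 23.8, 51.4, 14.5 and 14.1 CPM. Hif3a, which encodes a further alpha subunit, was also highest in the medial nasal library, at 24.3, 38.5, 20.2 and 28.4 CPM, as Epas1 was. Mitochondrial genes came closer to the enzymes. Of 26 genes of pyruvate dehydrogenase and the TCA cycle, 17 were higher in both the lateral nasal and maxillary libraries (29.2% of all genes), 21 were lowest in the medial nasal library (33.1% of all genes, and 10 of the 36 members) and their medians were 0.07, -0.19, 0.13 and -0.01. In the pentose phosphate pathway, which branches from glucose 6-phosphate, 5 of 7 genes had this order, among them Tkt, the transketolase, at 325, 256, 329 and 243 CPM.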

How the data were processed

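Per the labels and the authors' methods, total RNA was depleted of ribosomal RNA, sequenced as single-end reads of 50 bp and aligned to mm10 with STAR, and RSEM 1.4.1 with GENCODE M4 gave the deposited expected counts, posterior mean counts and TPM. The authors' values are not normalized between libraries, and lengths are in bases. Expected counts were rounded. Spike-in entries and entries without a gene ID held at most 5 counts per library and were left out. Symbols and coordinates were looked up in GENCODE M21 (GRCm38, the assembly of mm10). CPM used TMM factors from edgeR 4.0.16 (over genes reaching 10 counts in a library), log2 values 0.5 CPM more, and folds in calls the same addition. Genes needed 5 CPM in at least 1 library. Copies were found by shared words of 50 bases. Alternatives were DESeq2 1.42.0 size factors, total counts, TMM over protein-coding genes, TPM, posterior means, pseudocounts of 0.1 and 2, other minimum levels and folds, and copies added. The procedure was tested on simulated data. All members were named, and some of the label genes. Genes of connected pathways were named from the up to 4 with the largest range in each list, and not all of those are given. The members and lists were chosen with earlier results of these data known. Each process had 1 library, so no p-values were computed; precision is that of total counts of 13216161 to 16163874.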

Additional observations from a re-analysis of the deposited data

How the results depend on the processing

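With 1 library per process no replicate could be left out, and no paired analysis was possible because no process has a second library. The medians of the enzymes and of the hypoxia response genes, taken relative to all genes (0.20, -0.21, 0.15 and -0.20 for the enzymes, 0.09, -0.03, 0.10 and -0.10 for the hypoxia response genes), kept their sign in 96 of 96 recomputed values, with changes of -0.07 to 0.06, and 94 of these stayed within the counting half-width. The 2 that did not were the enzymes in the lateral nasal library with no minimum level (0.24, with 40 members tested) and the hypoxia response genes in the maxillary library with the deposited TPM (0.033). Of 55 recomputed counts, 51 lay within 1.5 times the reported one. Members separating the nasal from the first arch libraries were 7, and 11 with TMM over protein-coding genes. Members with a 2-fold range were 0, and 1 with the deposited TPM (Slc16a3, named after its values were seen), and 5 at a 1.5-fold threshold. Members higher in both the lateral nasal and maxillary libraries were 21, and 18 to 22 with the other scalings, units, pseudocounts, lower minimum levels and added copies. With a minimum of 100 CPM, chosen after seeing the data, there were 11, because only 13 members are then tested. That pairing and its alternatives were also chosen after seeing the data. The cause of the other changes was not tested. Genes at 5 CPM rest on 67.4 to 81.2 counts, which limits what Egln3, Aldoc, Eno2, Ankrd37 and Car9 can show.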
